A study of Mus musculus with 12 samples.

Results

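8 transcription regulators of meiosis and spermiogenesis were followed across RNA-seq libraries of mouse testis: Mybl1, Tcfl5, Brdt, Sox30, Crem, Tbpl1, Rfx2 and Rfx4. They were chosen by gene symbol from the 20788 genes of the expression table, and all 8 were among the 16388 genes with enough reads to be tested. The data were 12 libraries in 4 groups of 3. The 3NC group and the F1_5251KD group held testes of young adult offspring of male mice injected in the testis with lentivirus of the LV3 vector, either its control virus (3NC) or a virus made to knock down a long non-coding RNA, lncRNA5251 (F1_5251KD). The 5NC group and the F1_5251OV group were offspring of males given the LV5 vector, either its control virus (5NC) or a virus that overexpresses lncRNA5251 (F1_5251OV). No gene deletion, Cre line or other drug is named for any group. The strain reads IRC mouse in the labels, and ICR in the methods of the study. The injected animals were the fathers per the study's methods, while the design text of the series speaks of transfected F1 testes. The level of lncRNA5251 itself was not analysed here, so the groups are called by the group part of their sample titles (3NC, 5NC, F1_5251KD and F1_5251OV, the last pair written in the plots without F1_). Whether each library stands for its own animal is not stated, so a p-value here measures spread among libraries that could be technical.

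Male germ cells pass from spermatogonia through the meiotic prophase of spermatocytes to round spermatids, which then elongate, compact their DNA and grow a flagellum. Each stage has its own transcription programme. Mybl1 encodes A-MYB, which switches on genes of pachytene spermatocytes and the precursors of pachytene piRNAs. Tcfl5 is a testis helix-loop-helix factor, and Brdt is a bromodomain protein that binds acetylated histones. Sox30 and Crem act on genes of spermatids, and Crem recognises the cyclic AMP response element (CRE). Tbpl1 is a relative of the TATA-binding protein. Rfx2 and Rfx4 belong to the RFX family, whose members bind X-box motifs, and Rfx2 is known for genes of the sperm flagellum.

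The libraries held 12.7 to 15.8 M estimated reads, and 3 of them held under 14 M (5NC replicates 2 and 3, and F1_5251OV replicate 3). These 3 are called the low-read libraries below. The summed level of 15 leukocyte markers was 753 CPM in 3NC replicate 2 and 817 CPM in F1_5251KD replicate 1, against 51.0 to 112 CPM in the other libraries, where CPM is the library-size-scaled count, with TMM scaling. These 2 are called the leukocyte-rich libraries. The summed level of 8 epididymis markers was highest in 5NC replicates 2 and 3 (298 and 127 CPM), with 1.13 to 78.4 CPM elsewhere. The labelled tissue was met by its germ cell markers, since all 10 spermatocyte markers and all 10 round spermatid markers had reads in every library. The part of cell makeup in the results was not tested. In bulk tissue fewer cells of a type and less RNA per cell cannot be told apart.

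Promoters were examined because several of the 8 genes varied together over libraries (Sox30, Rfx2 and Rfx4) and because Mybl1 encodes a factor with a short, known motif. Entries from RefSeq, build GRCm38.p6, matched 6 of the 8 genes. The 250 bases before the start site are printed 5' to 3' on the strand of the gene, and capitals mark matches to the MYB motif AACNG on either strand.
Tcfl5, chr2:180642692-180642941, minus strand: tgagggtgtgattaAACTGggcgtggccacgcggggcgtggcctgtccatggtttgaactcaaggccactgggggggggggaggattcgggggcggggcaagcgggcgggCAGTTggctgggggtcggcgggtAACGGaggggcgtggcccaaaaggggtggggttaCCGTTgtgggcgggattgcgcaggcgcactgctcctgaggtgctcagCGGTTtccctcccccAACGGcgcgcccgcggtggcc
Rfx2, chr17:56831009-56831258, minus strand: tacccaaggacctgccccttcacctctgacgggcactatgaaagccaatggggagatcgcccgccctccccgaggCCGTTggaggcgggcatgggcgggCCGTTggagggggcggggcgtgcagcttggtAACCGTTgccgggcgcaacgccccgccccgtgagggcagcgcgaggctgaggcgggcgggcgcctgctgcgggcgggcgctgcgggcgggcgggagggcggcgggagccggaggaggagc
Sox30, chr11:45980060-45980309, plus strand: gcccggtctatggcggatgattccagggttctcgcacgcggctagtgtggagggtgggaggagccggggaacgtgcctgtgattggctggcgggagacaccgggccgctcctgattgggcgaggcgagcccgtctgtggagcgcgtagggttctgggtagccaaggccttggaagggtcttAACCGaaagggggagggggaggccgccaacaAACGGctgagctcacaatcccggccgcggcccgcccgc
Tbpl1, chr10:22731448-22731697, minus strand: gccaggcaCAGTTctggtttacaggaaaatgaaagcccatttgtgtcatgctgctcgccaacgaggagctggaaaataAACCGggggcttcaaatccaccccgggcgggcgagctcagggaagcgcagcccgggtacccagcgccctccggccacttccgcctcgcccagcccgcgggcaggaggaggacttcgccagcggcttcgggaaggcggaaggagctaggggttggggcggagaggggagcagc
Rfx4, chr10:84837898-84838147, plus strand: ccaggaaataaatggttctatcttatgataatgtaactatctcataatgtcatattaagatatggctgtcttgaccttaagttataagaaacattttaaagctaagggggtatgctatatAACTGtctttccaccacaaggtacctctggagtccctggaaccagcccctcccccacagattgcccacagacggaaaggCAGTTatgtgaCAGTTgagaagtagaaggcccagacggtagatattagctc

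The promoter of Tcfl5 held 6 matches to AACNG, that of Rfx2 held 4, that of Rfx4 at this start site held 3 (its other RefSeq start site, not printed, held 1), and those of Sox30, Tbpl1 and Brdt held 2 each. The last 17 bases of the Tcfl5 window and the last 5 of the Rfx2 window lie in an annotated first exon of the gene itself. So do the last 35 bases of the Brdt window, which is not printed. The motif is short, and 74.2% of 32851 mouse promoters of the same length held at least 1 match. At least 2 matches were found in 42.0% of them, at least 3 in 19.3%, at least 4 in 7.03% and at least 6 in 0.74%. In Rfx2 a pair of matches overlap, giving the run AACCGTT, and the X-box core GTTGCC begins inside that run, 116 bases before the start site. GTTGCC on either strand was present in 10.4% of promoters. Rfx2 also held the short CRE core TGACG, found in 17.8% of promoters, 224 bases before its start site. The full CRE TGACGTCA, found in 1.55% of promoters, was in none of the 7 windows of these genes, which held none of Crem or Mybl1. The E-box CACGTG lay 78 bases before the RefSeq start site of Brdt, and 6.02% of promoters held it. The SOX motif ACAAT lay 25 bases before the start of Sox30 and 22 bases before the other start site of Rfx4, and 27.7% of promoters held it. These are matches of letters and not measured binding.

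The 8 genes lie on 7 chromosomes. In GENCODE vM21 (GRCm38, the build of mm10) Mybl1 spans chr1:9667415-9700209 on the minus strand, Tcfl5 chr2:180621956-180642708 on the minus strand and Brdt chr5:107331159-107387058 on the plus strand. Sox30 spans chr11:45980310-46017994 on the plus strand and Crem chr18:3266048-3337748 on the minus strand. Rfx2 spans chr17:56775897-56831013 on the minus strand. Tbpl1 (chr10:22703879-22731938, minus strand) and Rfx4 (chr10:84756062-84906538, plus strand) share a chromosome. Crem has 39 annotated transcripts, 32 of them coding, from 21 coding start sites. Its activator and repressor forms are counted together in 1 row of the table. Tcfl5 shares 234 exon bases with Col9a3 on the opposite strand, Tbpl1 shares 407 with Slc2a12 and Crem shares 472 with Gm6225. The sources used here do not state whether strand was used in counting, so reads from these stretches are uncertain.

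Levels between genes were compared as FPKM, the authors' value per length of transcript. Averaged over 12 libraries, Tcfl5 was at 161 FPKM, Brdt at 148, Tbpl1 at 140, Rfx2 at 90.6, Crem at 85.8 and Sox30 at 81.0. Rfx4 at 33.5 FPKM and Mybl1 at 21.5 FPKM were the lowest. All 8 ranked in the upper part of the genes tested, from the 73.6th percentile (Mybl1) to the 95.9th (Tcfl5). Neighbours in this order had ranges over libraries that ran into each other, except between Sox30 (60.7 to 95.7 FPKM) and Rfx4 (25.9 to 41.1 FPKM), and between Tbpl1 (119 to 173) and Rfx2 (68.1 to 109). The spread over libraries was smallest in Tcfl5, with a coefficient of variation of 6.34%, then Brdt (6.63%) and Crem (8.14%). It was 13.6% in Tbpl1, 15.0% in Rfx4, 16.1% in Sox30, 16.9% in Rfx2 and 17.7% in Mybl1. The median over all genes tested was 16.2%, and over the 3064 genes at a mean of 80 CPM or more, where all 8 lie, it was 10.5%. Tcfl5, Brdt and Crem thus varied less than the median gene of similar level, and the other 5 varied more.

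**Figure D1:**
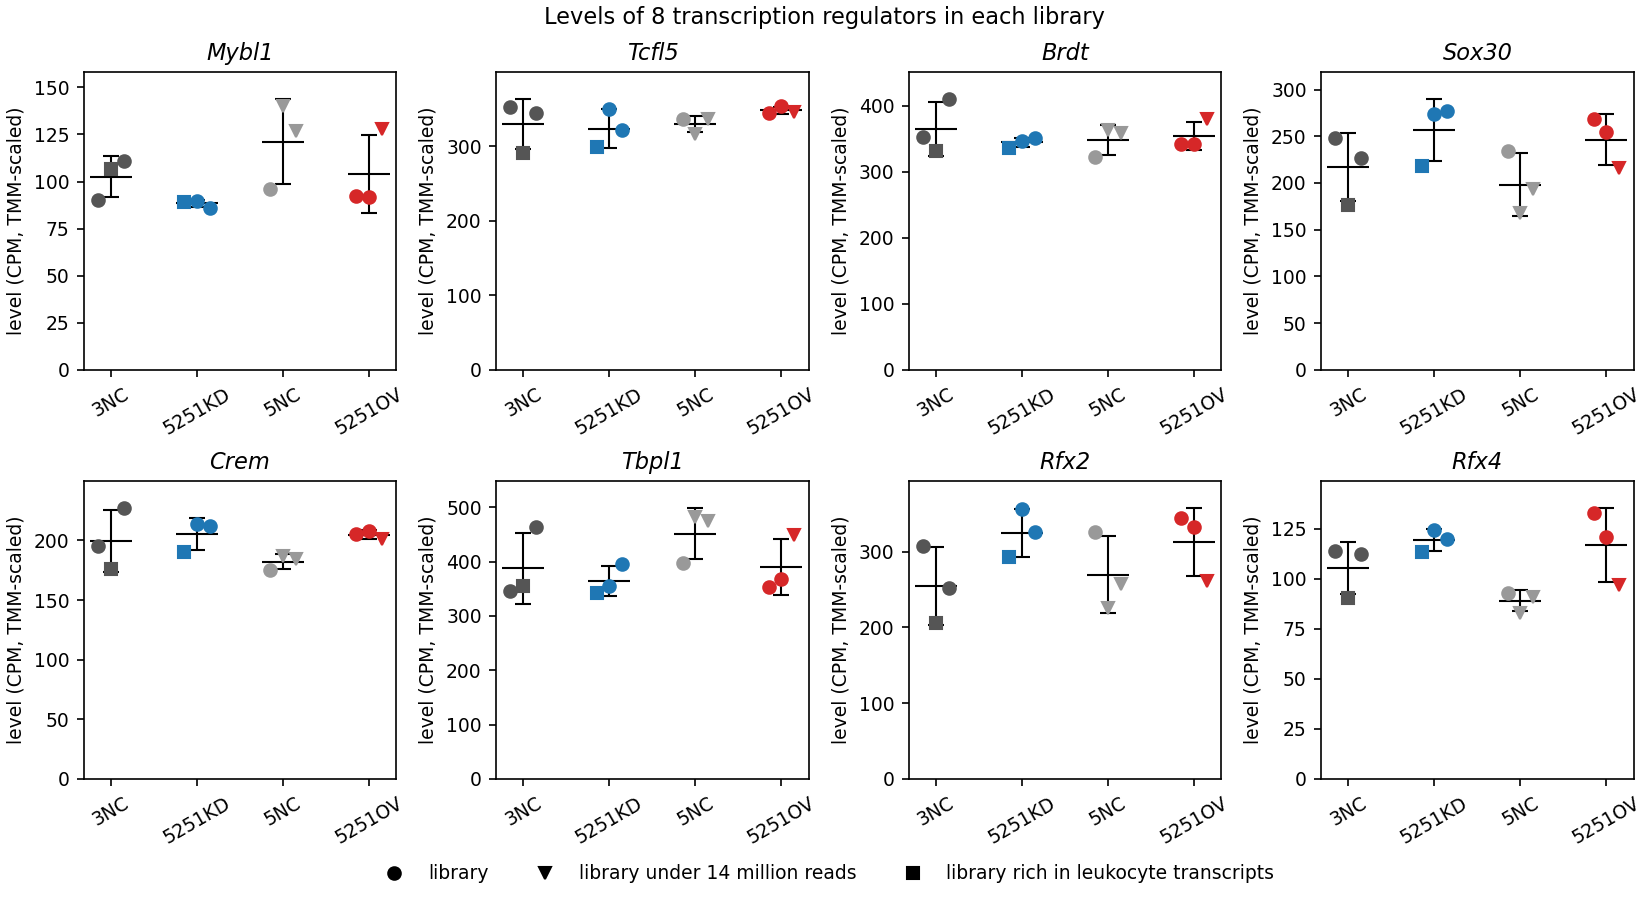
Level of each gene in each library (vertical axis, CPM scaled by TMM, starting at 0) by group (horizontal axis), where bars give the mean and SD of 3 libraries, triangles the low-read libraries and squares the leukocyte-rich libraries. Mybl1 was highest in the 3 low-read libraries, at 127 to 140 CPM, and Tcfl5 was lowest in the 2 leukocyte-rich libraries.

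Among the regulators of meiosis, Mybl1 was at 90.1, 107 and 111 CPM in 3NC and at 89.1, 89.8 and 86.2 CPM in F1_5251KD. It was at 96.1, 140 and 127 CPM in 5NC and at 92.2, 91.8 and 128 CPM in F1_5251OV. The 3 values above 120 CPM were those of the 3 low-read libraries. The low-read libraries (127 to 140 CPM) did not overlap the other 9 (86.2 to 111 CPM), which was also so for 4.75% of all genes tested. The group means were 121 ± 22.6 CPM (SD, n = 3) in 5NC, 104 ± 20.6 in F1_5251OV, 103 ± 11.1 in 3NC and 88.4 ± 1.93 in F1_5251KD.

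Tcfl5 was at 352, 291 and 345 CPM in 3NC and at 298, 350 and 322 CPM in F1_5251KD. It was at 336, 317 and 337 CPM in 5NC and at 344, 353 and 346 CPM in F1_5251OV. The lowest values, 291 and 298 CPM, were those of the 2 leukocyte-rich libraries, and the other 10 lay between 317 and 353 CPM. Brdt was at 353, 332 and 410 CPM in 3NC and at 337, 346 and 351 CPM in F1_5251KD. It was at 322, 364 and 359 CPM in 5NC and at 343, 342 and 379 CPM in F1_5251OV. 3NC replicate 3 stood highest, and the 4 groups overlapped in Brdt, with means between 344 and 365 CPM.

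Sox30, the factor of late spermatocytes and early spermatids, was at 248, 177 and 226 CPM in 3NC and at 218, 274 and 277 CPM in F1_5251KD. It was at 234, 168 and 193 CPM in 5NC and at 269, 254 and 216 CPM in F1_5251OV. Its lowest values were in 5NC replicate 2 and in the leukocyte-rich 3NC replicate 2. In 3NC, Crem was at 195, 176 and 227 CPM, and in F1_5251KD at 190, 214 and 212 CPM. In 5NC, Crem was at 175, 187 and 185 CPM, and in F1_5251OV at 205, 208 and 201 CPM. All 3 values of F1_5251OV lay above all 3 of 5NC, while those of 3NC overlapped both groups. Tbpl1 was at 345, 355 and 463 CPM in 3NC and at 343, 356 and 396 CPM in F1_5251KD. It was at 398, 482 and 475 CPM in 5NC and at 353, 367 and 450 CPM in F1_5251OV. The 4 highest, 450 to 482 CPM, were the 3 low-read libraries and 3NC replicate 3.

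Of the RFX factors, Rfx2 was at 308, 205 and 252 CPM in 3NC and at 293, 356 and 326 CPM in F1_5251KD. It was at 326, 226 and 257 CPM in 5NC and at 344, 332 and 261 CPM in F1_5251OV. 3NC replicate 2 was lowest, and the groups overlapped. Rfx4 was at 114, 90.4 and 112 CPM in 3NC and at 114, 124 and 120 CPM in F1_5251KD. It was at 93.2, 83.1 and 91.0 CPM in 5NC and at 133, 121 and 97.0 CPM in F1_5251OV. All 3 values of 5NC lay below all 3 of F1_5251OV, and the lowest of F1_5251OV was that of its low-read library.

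When the 4 groups were put in order of their mean for each gene, 22 of the 24 pairs of neighbouring groups had overlapping ranges. The 2 exceptions were Mybl1, where F1_5251KD lay below 3NC, and Tcfl5, where F1_5251OV lay above 5NC. Over all genes tested, ranges did not overlap in 11.3% between F1_5251KD and 3NC, and in 21.3% between F1_5251OV and 5NC. The share over all genes was not computed for neighbours in order of mean. Sox30, Crem, Rfx2 and Rfx4 had their highest mean in F1_5251KD followed by F1_5251OV. Mybl1 and Tbpl1 had their highest mean in 5NC and their lowest in F1_5251KD.

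The first comparison asked whether the regulators differed between testes of the F1_5251KD lineage and those of its own vector control, 3NC. By edgeR's quasi-likelihood test with Benjamini-Hochberg adjustment over all genes tested, 0 of the 8 genes passed at 0.05, with adjusted p between 0.764 and 0.947. None of the 8 had an unadjusted p under 0.05 either, and DESeq2 also called 0 of them. Over all genes 0% passed by edgeR (16 genes by DESeq2), 5.64% (924 genes) had an unadjusted p under 0.05 and 11.3% had ranges that did not overlap. The highest difference was in Rfx2, at 325 ± 31.7 CPM (SD, n = 3) in F1_5251KD and 255 ± 51.4 CPM in 3NC. Its log2 fold change was 0.35 (SE 0.17, 95% interval -0.03 to 0.73), with an adjusted p of 0.764 by edgeR, and leaving out 3NC replicate 2 gave 0.21 while leaving out 3NC replicate 1 gave 0.52. Sox30 had a log2 fold change of 0.24 (95% interval -0.10 to 0.59) and Rfx4 one of 0.18 (-0.09 to 0.44). Without 3NC replicate 2, Sox30 was at 0.11 and Rfx4 at 0.07. Mybl1 was at -0.22 (95% interval -0.56 to 0.13), and it was the 1 gene of the 8 whose ranges did not overlap. Without 3NC replicate 3 it was at -0.14. Crem (0.04), Tcfl5 (-0.03), Brdt (-0.08) and Tbpl1 (-0.09) had intervals that held 0, and each changed sign when 1 library was left out. All libraries of both groups held over 14 M reads, and each group held 1 leukocyte-rich library. Without those 2 libraries the log2 fold change was 0.29 in Rfx2 and -0.19 in Mybl1.

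The second comparison set the F1_5251OV lineage against its vector control, 5NC. Rfx4 was at 117 ± 18.4 CPM (SD, n = 3) in F1_5251OV and 89.1 ± 5.31 CPM in 5NC, 1.31-fold higher. Its log2 fold change was 0.39 (SE 0.12, 95% interval 0.13 to 0.66), with an unadjusted p of 0.00793 and an adjusted p of 0.218 by edgeR, so it did not pass. Over the alternatives its adjusted p went down to 0.0984 (DESeq2) and its log2 fold change ranged from 0.29 to 0.52. None of the 8 genes passed, where 0.311% of all genes did. Rfx4 was the 1 gene of the 8 with an unadjusted p under 0.05, against 11.9% of all genes. Ranges did not overlap in 3 of the 8 (Rfx4, Crem and Tcfl5, all higher in F1_5251OV), against 21.3% of all genes. Crem was at 205 ± 3.51 CPM in F1_5251OV and 182 ± 6.36 CPM in 5NC, a log2 fold change of 0.17 (95% interval -0.03 to 0.37). Tcfl5 was at 348 ± 4.62 and 330 ± 11.2 CPM, a log2 fold change of 0.08 (-0.11 to 0.27), and it was 0.05 without 5NC replicate 2 and 0.03 as the ratio of mean FPKM. Crem was at 0.10 as the ratio of mean FPKM. Sox30 was at 0.31 (-0.03 to 0.66), Rfx2 at 0.21 (-0.16 to 0.59) and Brdt at 0.03 (-0.17 to 0.22). Tbpl1 was at -0.21 (-0.51 to 0.08) and Mybl1 at -0.22 (-0.56 to 0.12). Single libraries moved several of these values. Mybl1 was at -0.11 without 5NC replicate 2, -0.14 without F1_5251OV replicate 1, -0.13 without its replicate 2, -0.39 without its replicate 3 and -0.36 without 5NC replicate 1. Rfx2 was at 0.10 without 5NC replicate 2, 0.14 without F1_5251OV replicate 1, 0.33 without its replicate 3 and 0.37 without 5NC replicate 1. Sox30 ranged from 0.20 (without 5NC replicate 2) to 0.45 (without 5NC replicate 1), and Tbpl1 from -0.14 (without F1_5251OV replicate 1) to -0.32 (without its replicate 3).

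Depth was not even between these groups, since 5NC held 2 low-read libraries and F1_5251OV held 1. Within the libraries of at least 14 M reads (1 of 5NC and 2 of F1_5251OV) the log2 ratio of mean CPM was 0.45 in Rfx4, 0.24 in Crem, 0.16 in Sox30 and 0.05 in Rfx2. It was -0.06 in Mybl1 and -0.14 in Tbpl1. Within the low-read libraries (2 of 5NC and 1 of F1_5251OV) it was 0.16 in Rfx4, 0.11 in Crem, 0.26 in Sox30 and 0.11 in Rfx2, with -0.06 in Mybl1 and -0.09 in Tbpl1. Each depth sets 1 library against 2, so these ratios have no measure of spread. With the low-read libraries as a term in the edgeR fit, an alternative chosen after the values were seen, the log2 fold change was 0.30 in Rfx4, -0.06 in Mybl1 and 0.08 in Rfx2, each with an adjusted p above 0.05.

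**Figure D2:**
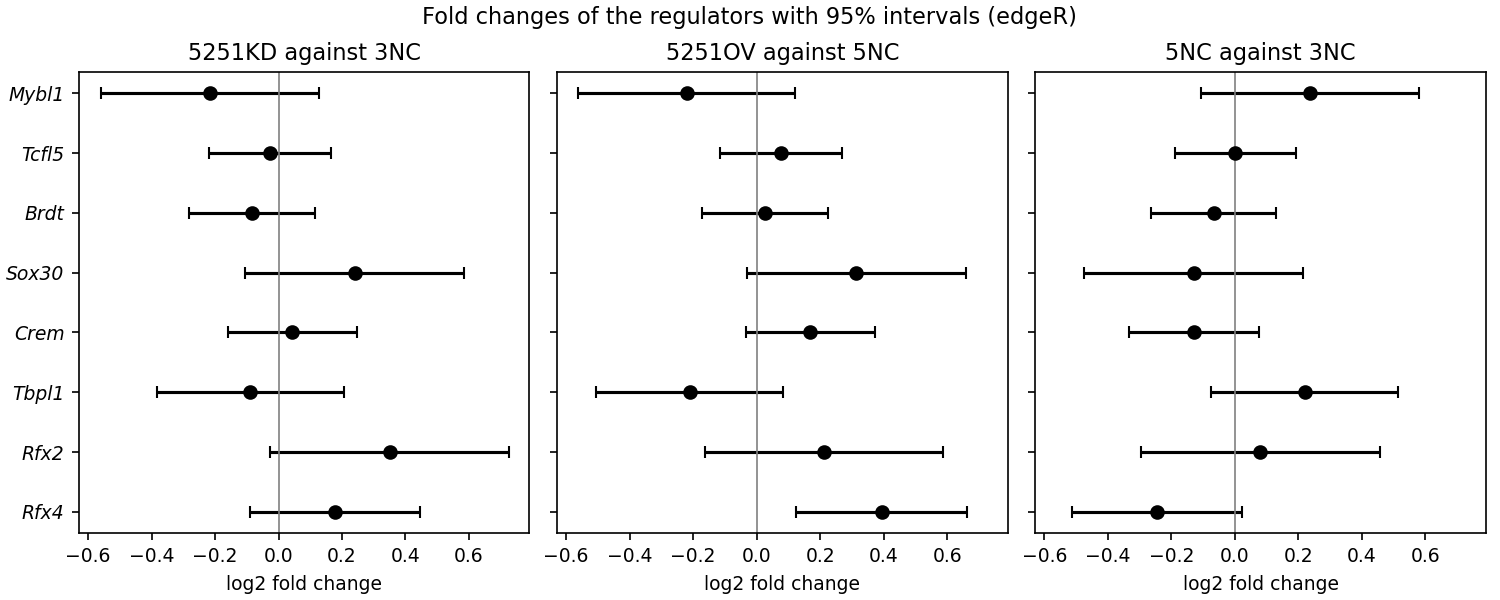
Log2 fold change of each gene (horizontal axis) with its 95% interval from edgeR, in 3 comparisons of 3 against 3 libraries. In F1_5251OV against 5NC the interval of Rfx4, from 0.13 to 0.66, does not hold 0, and the intervals of the other genes do, as do all 8 in the other comparisons, before adjustment over all genes tested.

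The vector controls were compared as a background, since both groups descended from males given a control virus. The log2 fold changes of 5NC against 3NC lay between -0.24 and 0.24. Mybl1 was at 0.24 (95% interval -0.11 to 0.58) and Tbpl1 at 0.22 (-0.08 to 0.51) on the log2 scale, and Rfx4 at -0.24 (-0.51 to 0.02). Crem and Sox30 were both at -0.13, Brdt at -0.07, Rfx2 at 0.08 and Tcfl5 at 0.00. Brdt, Rfx2 and Tcfl5 each changed sign when 1 library was left out. None of the 8 passed, against 0.128% of all genes, and none had an unadjusted p under 0.05, against 10.8%. No gene of the 8 had ranges that did not overlap, against 13.0% of all genes. With 1 library left out, Crem ranged from -0.21 (without 3NC replicate 2) to -0.01 (without 3NC replicate 3), Sox30 from -0.27 (without 5NC replicate 1) to -0.02 (without 3NC replicate 1), Mybl1 from 0.11 (without 5NC replicate 2) to 0.37 (without 5NC replicate 1), and Tbpl1 from 0.15 (without 3NC replicate 1) to 0.38 (without 3NC replicate 3). With the low-read libraries as a term, Mybl1 was at -0.10 and Sox30 at 0.08, so both changed sign. That term also took Tbpl1 to 0.02, Rfx4 to -0.08, Rfx2 to 0.33 and Brdt to -0.17.

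The difference between the F1_5251OV effect and the F1_5251KD effect was tested itself. It was largest in Rfx4, at 0.22 on the log2 scale (SE 0.17, 95% interval -0.16 to 0.59), and had an adjusted p of 0.9999 by edgeR in each of the 8 genes. In Rfx4 it was 0.11 without F1_5251OV replicate 1 and 0.34 without F1_5251OV replicate 3. None passed, where 0.0244% of all genes did, and none had an unadjusted p under 0.05, where 4.63% did. The F1_5251KD and F1_5251OV comparisons have separate controls, and the intervals of the difference were up to 0.53 wide on either side of the estimate (Rfx2, -0.67 to 0.39).

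**Figure D3:**
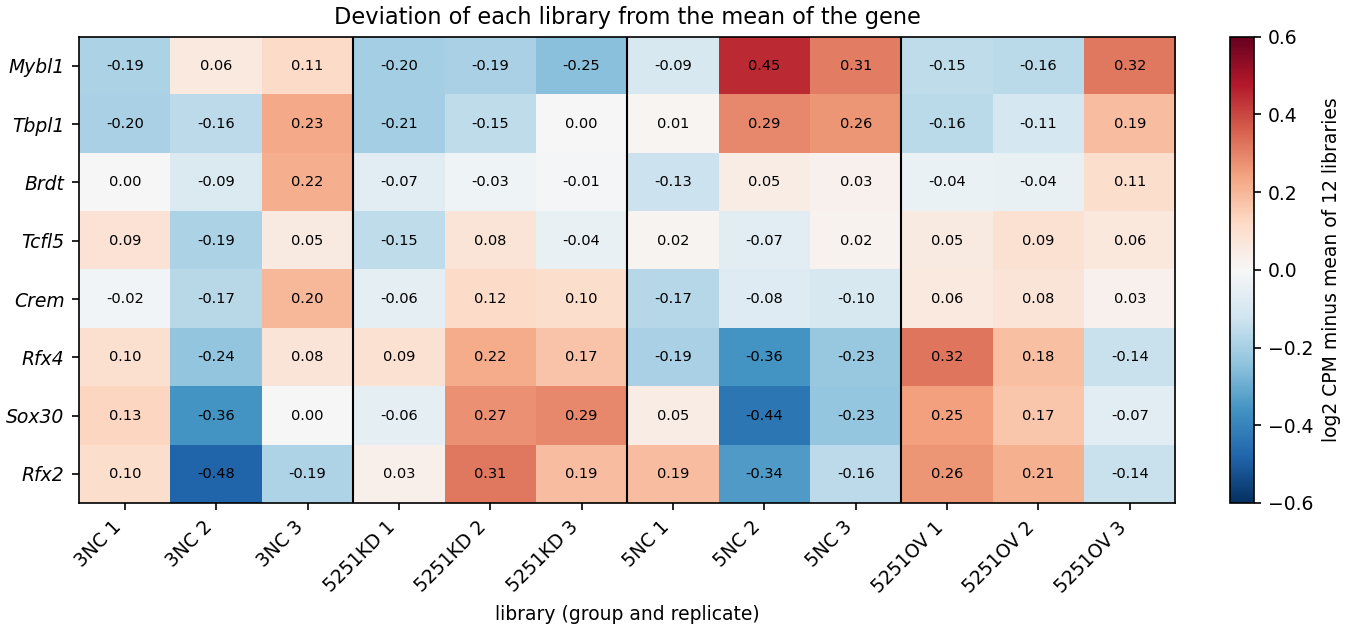
Log2 CPM of each gene (rows) in each library (columns, with lines between groups) minus the mean of the gene over 12 libraries, in colour and as printed values. Mybl1 and Tbpl1 were above their means in the 3 low-read libraries, where Rfx4, Sox30 and Rfx2 were below theirs.

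Some of the 8 genes varied together over libraries. In all, 92 relations were computed over the 12 libraries (28 pairs of the genes and 64 of a gene with a summed marker list), on log2 values, with permutation p-values from 100000 resamples. Of the 28 pairs, 9 had an adjusted p of r under 0.05, and none of these held Tcfl5. Within the 9 libraries of at least 14 M reads 2 pairs did, Sox30 with Rfx2 and Brdt with Crem. For Brdt and Crem, r was 0.77 there (exact permutation p = 0.00266, adjusted p = 0.0408), rho was 0.80 (exact permutation p = 0.0138), and r was 0.68 without the 2 farthest. Over all 12 libraries r for that pair was 0.60 (permutation p = 0.0361, adjusted p = 0.103) and rho was 0.43 (permutation p = 0.169, adjusted p = 0.318). Sox30 and Rfx2 rose and fell together, with Pearson's r of 0.92 (permutation p = 2e-05, adjusted p = 0.00184) and Spearman's rho of 0.90 (permutation p = 0.00012, adjusted p = 0.00368). Without the 2 libraries farthest from the median of Sox30, r was 0.85. Within the 9 libraries of at least 14 M reads it was 0.91 (exact permutation p = 0.00158, adjusted p = 0.0408), or 0.77 without the 2 farthest of those 9, and after the group means were taken out it was 0.95. Sox30 and Rfx4 had r of 0.89 (permutation p = 0.00016, adjusted p = 0.00223) and rho of 0.90 (permutation p = 0.00024, adjusted p = 0.00552). The r was 0.81 without the 2 farthest and 0.80 within the 9 libraries (exact permutation p = 0.00774, adjusted p = 0.0835), or 0.72 without the 2 farthest of those. Rfx2 and Rfx4 had r of 0.77 (permutation p = 0.00397, adjusted p = 0.0235) and rho of 0.89 (permutation p = 0.00034, adjusted p = 0.00626). Without the 2 farthest it was 0.63, and within the 9 libraries 0.67 (exact permutation p = 0.0434, adjusted p = 0.164). Without the 2 farthest of those 9 it was 0.40, while rho within the 9 was 0.88 (exact permutation p = 0.00308), and with the group means taken out of all 12 libraries r was 0.85.

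Sox30, Crem and Rfx4 moved with 10 genes that mark round spermatids, whose summed level ranged from 1401 to 1915 CPM over libraries. For Crem, r was 0.88 (permutation p = 0.00017, adjusted p = 0.00223) and rho was 0.91 (permutation p = 0.00011, adjusted p = 0.00368). Without the 2 libraries farthest from the median of Crem, r was 0.94, and within the 9 deeper libraries it was 0.90 (exact permutation p = 0.000149, adjusted p = 0.0137), or 0.88 without the 2 farthest of those. For Rfx4, r was 0.89 (permutation p = 0.00014, adjusted p = 0.00223) and rho was 0.86 (permutation p = 0.00073, adjusted p = 0.00959). It was 0.86 without the 2 farthest and 0.86 within the 9 libraries (exact permutation p = 0.00231, adjusted p = 0.0408). For Sox30, r was 0.88 (permutation p = 0.00017, adjusted p = 0.00223) and rho was 0.80 (permutation p = 0.00306, adjusted p = 0.0282), with 0.77 without the 2 farthest and 0.84 within the 9 libraries (exact permutation p = 0.00907, adjusted p = 0.0835). Without the 2 farthest of those 9 libraries, r was 0.46 in Rfx4 and 0.38 in Sox30, while rho within the 9 was 0.72 in Rfx4 (exact permutation p = 0.0369) and 0.60 in Sox30 (exact permutation p = 0.0968). For Rfx2, r was 0.75 (permutation p = 0.00557, adjusted p = 0.027) and 0.44 without the 2 farthest, and rho was 0.70 (permutation p = 0.0146, adjusted p = 0.0708). Within the 9 libraries it was 0.67 (exact permutation p = 0.0549, adjusted p = 0.19), 0.71 without the 2 farthest of those, and with the group means taken out of all 12 it was 0.75. The summed round spermatid level was 1401 to 1907 CPM in 3NC, 1658 to 1915 in F1_5251KD, 1481 to 1604 in 5NC and 1662 to 1866 in F1_5251OV. The ranges of 5NC and F1_5251OV did not overlap, as for Rfx4 and Crem, and the part of this in their values was not tested.

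The summed levels of 2 other marker lists fell into separate clusters of libraries. For 10 elongating spermatid markers, 5 libraries lay at 17310 to 19303 CPM and 7 at 21560 to 24205 CPM, and the 5 were the low-read and the leukocyte-rich libraries. Sox30 was at 168 to 218 CPM in the 5 and 226 to 277 CPM in the 7, without overlap, which was also so for 5.19% of all genes tested, and the other 7 of the 8 genes overlapped. Over all 12 libraries, r with these markers was 0.88 in Sox30 (permutation p = 9e-05, adjusted p = 0.00223), with rho of 0.90. It was 0.78 in Rfx2, 0.71 in Rfx4 and 0.70 in Tcfl5 (adjusted permutation p = 0.0235, 0.046 and 0.037). Within the 9 deeper libraries r was 0.85 in Sox30 (exact permutation p = 0.00249, adjusted p = 0.0408). The adjusted exact p there was 0.16 in Rfx2, 0.25 in Rfx4 and 0.12 in Tcfl5. Within the 7 libraries no relation with these markers was detected for any of the 8 genes after adjustment (smallest adjusted exact p = 0.694, in Mybl1). There r was 0.45 in Sox30 (exact permutation p = 0.293, rho 0.64), 0.14 in Rfx2 (exact permutation p = 0.833, rho 0.14) and 0.26 in Rfx4 (exact permutation p = 0.618, rho 0.32), and without the 2 farthest it was -0.04, -0.54 and 0.09. The summed epididymis level fell into separate clusters, with 5 libraries at 1.13 to 1.96 CPM (all of F1_5251OV, and F1_5251KD replicates 2 and 3) and 7 at 14.5 to 298 CPM. In the 5 and the 7 libraries, Sox30 was at 216 to 277 and 168 to 248 CPM, Rfx2 at 261 to 356 and 205 to 326 CPM, and Rfx4 at 97.0 to 133 and 83.1 to 114 CPM, so all 3 overlapped. Over all 12 libraries, r with the epididymis markers was -0.81 in Sox30, -0.74 in Rfx2 and -0.73 in Rfx4 (adjusted permutation p = 0.0131, 0.0328 and 0.037). Within the 9 deeper libraries it was -0.81, -0.80 and -0.74 in that order (adjusted exact permutation p = 0.0447, 0.0408 and 0.118). Within the 7 libraries r was -0.81 in Sox30 (exact permutation p = 0.0325, adjusted p = 0.13), -0.72 in Rfx2 (exact permutation p = 0.0714, adjusted p = 0.191) and -0.67 in Rfx4 (exact permutation p = 0.112, adjusted p = 0.225), with rho of -0.71, -0.68 and -0.64. Mybl1 had r of 0.86 there (exact permutation p = 0.0141, adjusted p = 0.113) and rho of 0.75, so none of the 8 passed adjustment within the 7 libraries. Without the 2 farthest of the 7, r was -0.59 in Sox30, -0.75 in Rfx2, -0.62 in Rfx4 and 0.66 in Mybl1.

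The summed level of 10 spermatocyte markers fell into separate clusters, with 4 libraries at 1999 to 2228 CPM and 8 at 1619 to 1724 CPM. The 4 were the 3 low-read libraries and 3NC replicate 3. Mybl1 was at 111 to 140 CPM in the 4 and 86.2 to 107 CPM in the 8. Brdt was at 359 to 410 CPM against 322 to 353 CPM, and Tbpl1 at 450 to 482 CPM against 343 to 398 CPM. These 3 genes did not overlap between the clusters, as did not 7.65% of all genes tested, and the other 5 overlapped. The summed level of 9 Sertoli markers also differed between these clusters, at 679 to 695 CPM in the 4 and 744 to 915 CPM in the 8, and its part in these values was not tested. Over all 12 libraries, r with the spermatocyte markers was 0.94 in Mybl1 (permutation p = 4e-05, adjusted p = 0.00184). It was 0.88 in Tbpl1 (permutation p = 0.00126, adjusted p = 0.0116) and 0.72 in Brdt (permutation p = 0.00633, adjusted p = 0.0291). The rho was 0.86, 0.66 and 0.69 in the same order. Within the 9 deeper libraries r was 0.75, 0.73 and 0.89, with adjusted exact p of 0.127, 0.244 and 0.153. Within the 8 libraries no relation with the spermatocyte markers was detected. There r was 0.38 in Mybl1 (exact permutation p = 0.388), 0.23 in Brdt (exact permutation p = 0.582) and -0.26 in Tbpl1 (exact permutation p = 0.524), with rho of 0.52, 0.10 and -0.07 and an adjusted exact p of 0.776 in each. Over all 12 libraries, r of Mybl1 was 0.85 with Tbpl1 (permutation p = 0.00126, adjusted p = 0.0116) and -0.80 with Sox30 (permutation p = 0.0024, adjusted p = 0.0184). It was -0.79 with Rfx4 (permutation p = 0.00296, adjusted p = 0.019) and -0.76 with Rfx2 (permutation p = 0.00469, adjusted p = 0.0243). Because the low-read libraries stood apart in Mybl1, these relations were also read within the 9 deeper libraries. There r was -0.79 with Rfx2 (exact permutation p = 0.0237, adjusted p = 0.136), with rho of -0.43, and r was 0.18 without the 2 farthest libraries. It was -0.69 with Sox30 (exact permutation p = 0.044, adjusted p = 0.164, rho -0.55), -0.55 with Rfx4 (exact permutation p = 0.092, adjusted p = 0.246, rho -0.48) and 0.55 with Tbpl1 (exact permutation p = 0.105, adjusted p = 0.246, rho 0.40), and without the 2 farthest it was -0.34, -0.52 and 0.17. None of these passed adjustment within the 9 libraries.

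**Figure D4:**
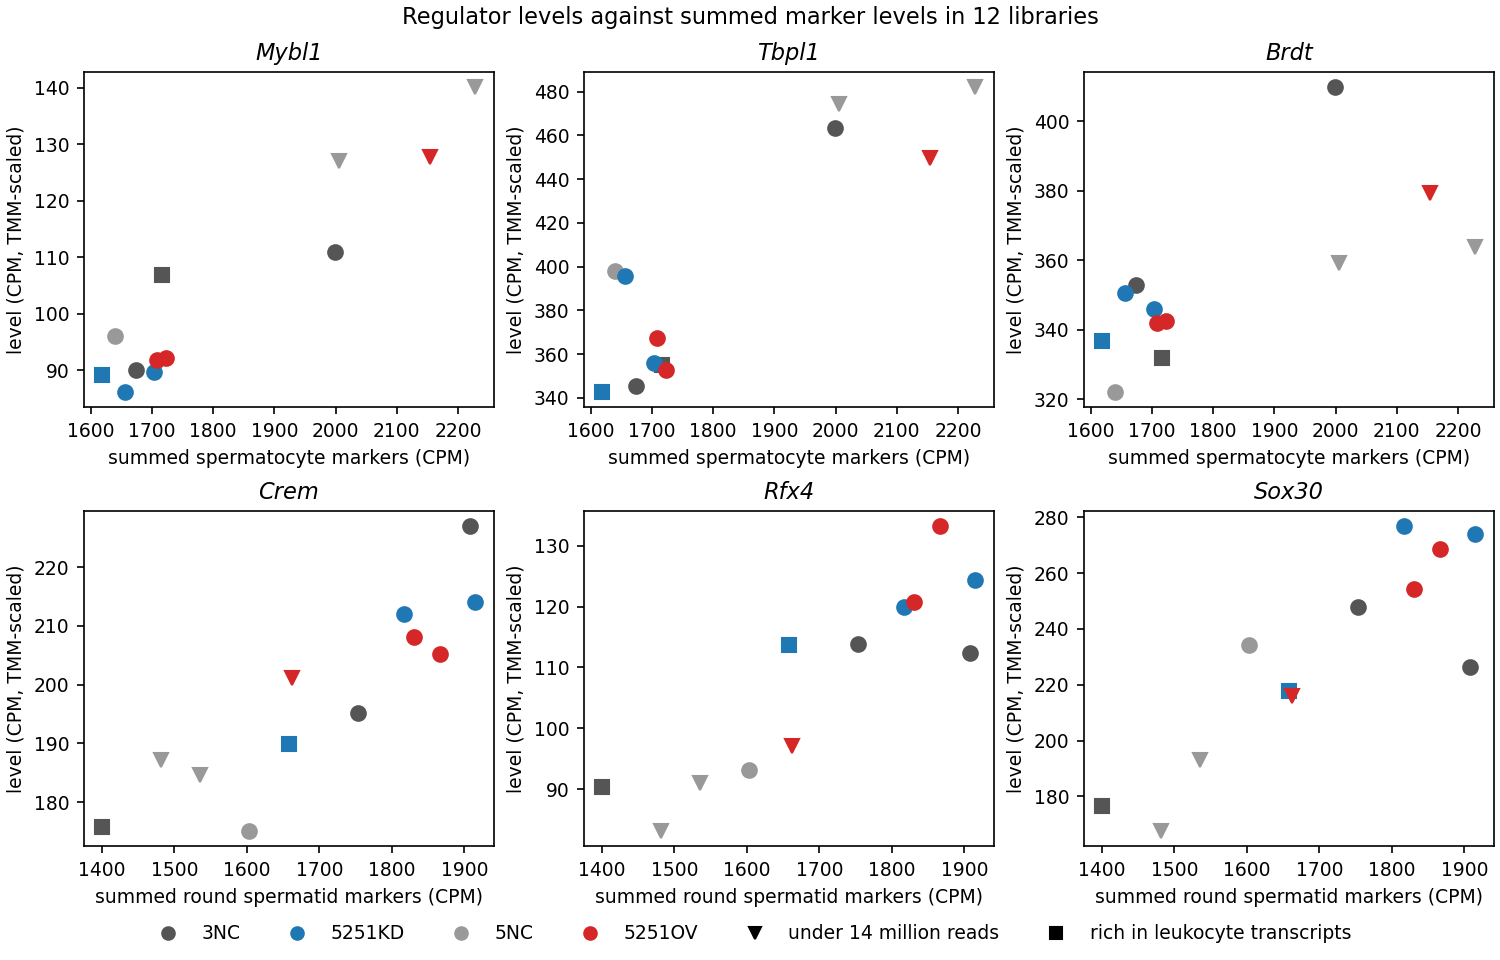
Level of 6 genes in each library (vertical axes, CPM) against the summed level of 10 spermatocyte or 10 round spermatid markers (horizontal axes, CPM), coloured by group; axes do not start at 0. Crem, Rfx4 and Sox30 rise along the round spermatid axis, while Mybl1, Tbpl1 and Brdt fall into 4 libraries at 1999 CPM or more of spermatocyte markers and 8 at 1724 CPM or less.

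The genes most like each regulator over the 12 libraries were sought among 15405 genes with a mean of at least 1 CPM, by Pearson's r of log2 CPM, given as a description of the highest of many values. They were Mtx2 for Mybl1 (r 0.99, rho 0.96), Ttll10 for Sox30 (r 0.99, rho 0.97), Vwa5b1 for Rfx4 (r 0.99, rho 0.94) and Ccdc92 for Rfx2 (r 0.99, rho 0.94). They were Cpa5 for Crem (r 0.98, rho 0.96), Asnsd1 for Brdt (r 0.97, rho 0.97), Zpbp2 for Tbpl1 (r 0.96, rho 0.99) and Brap for Tcfl5 (r 0.92, rho 0.82).

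The partners and targets of the regulators gave no call. Of 12 partners of Crem, 14 of its targets, 19 targets of A-MYB, 18 cilium and flagellum genes of the RFX programme, 12 core promoter factors, 19 relatives of the 8 genes and 26 other germ cell regulators, 0 passed in any of the 4 tests. In F1_5251KD against 3NC the median log2 fold change was -0.08 for Crem partners, 0.06 for Crem targets, 0.01 for A-MYB targets, 0.02 for RFX genes, -0.08 for core promoter factors, 0.00 for relatives and 0.03 for the other regulators, against -0.02 over all genes tested. The medians of F1_5251OV against 5NC were 0.09, 0.20, 0.04, 0.06, -0.10, 0.13 and 0.02 in the same order, against -0.01 over all genes tested. At an unadjusted p under 0.05 in that comparison there were 3 higher and 0 lower Crem partners, 2 and 0 Crem targets, 2 and 1 A-MYB targets, 2 and 2 RFX genes, 0 and 0 core promoter factors, 3 and 1 relatives, and 1 and 2 other regulators. Over all genes tested 11.9% had such a p, in either direction. Of the Crem targets, 12 of 14 had a positive log2 fold change there, against 48.2% of all genes. Of these targets Tnp1, Tnp2, Prm1, Prm2, Smcp, Odf1 and Gapdhs are also among the elongating spermatid markers, and Acr is a round spermatid marker. The round spermatid markers were positive in 9 of 10 there, and the elongating spermatid markers in 8 of 10. The part of cell makeup in this was not tested. In 5NC against 3NC the medians were -0.19, -0.15, 0.04, 0.01, 0.02, -0.11 and 0.08, against -0.02 over all genes.

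The genes with the smallest p of each list are given with log2 fold changes, and none had an adjusted p under 0.05 by edgeR. Among Crem partners, Crebbp, the CREB-binding acetyltransferase, was at 0.23 in F1_5251KD against 3NC and 0.31 in F1_5251OV against 5NC (adjusted p = 0.24), while Fhl2, a LIM-only cofactor, was at -0.52 and -0.31. Between the vector controls (5NC against 3NC, which shares the 5NC libraries) Fhl2 was at 0.24 and Fhl5, the testis coactivator of CREM, at -0.26. Among Crem targets, Odf1, a protein of the sperm tail's outer dense fibres, was at 0.31 and 0.55. Prm1, a protamine, was at -0.12 in the first comparison, and Tnp1, a transition protein, at -0.17 in the second. In 5NC against 3NC, Ldhc, the testis lactate dehydrogenase, was at 0.07 and Smcp, of the mitochondrial capsule of sperm, at -0.32.

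Among A-MYB targets, Piwil1, a PIWI protein, was at 0.17 and Tdrd3 at -0.10 in F1_5251KD against 3NC. Hspa2, a chaperone of spermatocytes, was at 0.29 and Ccna1, a meiotic cyclin, at -0.30 (adjusted p = 0.204) in F1_5251OV against 5NC. Both were among the smallest p in 5NC against 3NC with the opposite sign, Ccna1 at 0.35 and Hspa2 at -0.13, and the comparisons share the 5NC libraries. Among RFX genes, Foxj1, a factor of motile cilia, was at 0.40 in F1_5251KD against 3NC and at 0.57 in F1_5251OV against 5NC (adjusted p = 0.238). Ift20, of intraflagellar transport, was at -0.23 in the first and Spag6l, of the axoneme, at -0.21 in the second. In 5NC against 3NC, Spag6l was at 0.23 and Tekt2, a tektin, at -0.27.

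Among core promoter factors, Gtf2a1l, the germ cell form of a TFIIA subunit, was at 0.08 and Taf1 at -0.36 in the first comparison. Taf3 was at 0.14 and Gtf2b at -0.15 in the second, and in the vector controls Gtf2b was at 0.16 and Taf3 at -0.14. Among relatives, Rfx1 was at 0.50 and Rfx7 at -0.20 in the first. Sox6 was at 0.69 (adjusted p = 0.17) and Rfx8 at -0.40 (adjusted p = 0.176) in the second, and in 5NC against 3NC Rfx8 was at 0.34 and Sox6 at -0.82. Among other regulators, Zbtb16, a factor of undifferentiated spermatogonia, was at 0.58 and Taf7l at -0.21 in the first. Trim66 was at 0.50 and Stra8, the gatekeeper of meiotic entry, at -0.47 in the second, and in the vector controls Zbtb16 was at 0.36 and Spz1 at -0.27.

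For the difference of the effects, the genes of smallest p on the higher side were Prkar2a (0.34), Camk4 (0.24), Tdrd9 (0.27), Dync2h1 (0.15), Taf3 (0.11), Sox6 (0.93) and Spz1 (0.31), in the order of the lists. On the lower side they were Prkaca (-0.06), Tnp2 (-0.18), Ccna1 (-0.32), Tekt1 (-0.40), Tbp (-0.14), Rfx8 (-0.25) and Zbtb16 (-0.80). The smallest adjusted p among them was 0.798 (Sox6).

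Germ cell markers are given beside these values. In F1_5251OV against 5NC, 1 of 10 spermatocyte markers passed, Spo11, which makes the breaks of meiotic recombination. It was at 43.3 ± 3.72 CPM (SD, n = 3) in F1_5251OV and 61.7 ± 4.66 CPM in 5NC, a log2 fold change of -0.51 with an adjusted p of 0.0452 by edgeR. Spo11 passed under 10 of 18 alternatives, with adjusted p of 0.000106 to 0.253, and in 1 of the 6 fits that left out a single library (5NC replicate 1, 0.0463). With the replicate number as a block in the edgeR fit, Spo11 did not pass (adjusted p = 0.0811). Without 5NC replicate 2 or 3, or without F1_5251OV replicate 1, 2 or 3, its adjusted p was 0.162, 0.241, 0.167, 0.253 and 0.0831. The median was -0.14 over the spermatocyte markers, 0.39 over the round spermatid markers and 0.18 over the elongating spermatid markers. In F1_5251KD against 3NC those medians were -0.14, 0.08 and 0.03, and in 5NC against 3NC they were 0.14, -0.26 and -0.17. Of the 5 epididymis markers tested, all were lower in F1_5251OV than in 5NC at an unadjusted p under 0.05 and 1 passed, Spint3 (adjusted p = 0.0206), under 12 of 18 alternatives. In F1_5251KD against 3NC all 5 were likewise lower at an unadjusted p under 0.05, with log2 fold changes of -3.27 (Defb22) to -1.20 (Spint3), and 0 passed. For the difference of the effects 2 of the 5 had an unadjusted p under 0.05 and 0 passed. All 5 were above 0 in 5NC against 3NC, and 1 had an unadjusted p under 0.05. Such a p was found, in either direction, in 11.9% of all genes tested in F1_5251OV against 5NC and 5.64% in F1_5251KD against 3NC. It was found in 4.63% for the difference and 10.8% in 5NC against 3NC. Spint3 in F1_5251OV against 5NC did not pass without any 1 of those same 5 libraries, with adjusted p of 0.0682 to 0.149. Nor did Spint3 pass with the replicate block in the edgeR fit (adjusted p = 0.0552). No gene of the spermatogonium, Sertoli, Leydig or leukocyte lists passed in any test, nor of the spermatocyte, round spermatid, elongating spermatid or epididymis lists in the other tests. The medians of F1_5251OV against 5NC were -0.10 for spermatogonium, -0.04 for Sertoli, 0.07 for Leydig and 0.16 for leukocyte markers, and in F1_5251KD against 3NC they were -0.02, 0.00, -0.54 and -0.08.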

How the data were processed

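Testis RNA of 12 libraries was enriched with oligo(dT) beads and sequenced, and per the study's methods the authors aligned reads to mouse genes with SOAPaligner. The submitters' processing notes name build mm10. The labels speak of total RNA as the input. The authors' deposited table holds estimated counts (expected counts per gene, not scaled, with fractions in at least 1 library for 17.3% of genes) and FPKM values computed by the authors. The sources used here do not state how reads were shared among genes. The authors made their own calls with DEGseq. A further 18 per-sample columns of other groups were not used.

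Groups came from the sample titles. Counts were rounded, filtered with filterByExpr (16388 of 20788 genes), scaled by TMM and fitted for all 12 libraries together in edgeR 4.0.16 (R 4.3.3; glmQLFit, glmQLFTest, 8 residual degrees of freedom), with Benjamini-Hochberg adjustment over all genes tested and a threshold of 0.05. No pair of libraries of a group agreed within sampling noise (chi-square per degree of freedom of at least 3.55). Depth was 12.7 to 15.8 M estimated reads per library, and each of the 8 genes rested on at least 1181 reads per library. Relations were tested by permutation (numpy 2.4.6). The scripts were tested on simulated data.

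The 8 genes and the lists were chosen with earlier results of these data known. Named genes were the 8, per list and comparison the gene of smallest p in each direction and each gene that passed, and the gene most like each of the 8. Alternatives were RLE size factors, no filter, a replicate block, only the libraries compared, DESeq2 1.42.0, limma 3.58.1 (limma-trend) on log2 CPM and on log2(FPKM + 0.1 or 1) with and without a filter of 0.5 FPKM in 3 libraries, the ratio of mean FPKM, each library left out, and both leukocyte-rich libraries left out. Chosen after the data were seen were the low-read libraries as a term, total reads without TMM, the cut at 14 M reads, the split at 1800 CPM of spermatocyte markers, the splits of epididymis and elongating spermatid markers at their widest gap and the marker genes followed over alternatives.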

Additional observations from a re-analysis of the deposited data

How the results depend on the processing

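None of the 8 genes passed in any comparison under any alternative run. Of 152 values under alternatives in each of the 3 comparisons and 184 for the difference of the effects, 6 (F1_5251KD against 3NC), 7 (F1_5251OV against 5NC), 11 (5NC against 3NC) and 15 (difference) changed sign. Their reported log2 fold changes lay between -0.14 (Rfx2, difference) and 0.24 (Mybl1, 5NC against 3NC), and the cause was not tested. In 5NC against 3NC, Tcfl5 was at -0.00052 with RLE size factors and -0.081 without the leukocyte-rich libraries, where Rfx2 was at -0.054. With the low-read libraries as a term, Mybl1 was at -0.10 and Sox30 at 0.076 there. For the difference, Mybl1 was at 0.0018 with RLE size factors, 0.0020 with DESeq2 and 0.15 with the low-read term, where Sox30 was at -0.030. In F1_5251OV against 5NC, Brdt was at -0.0214 with limma on log2(FPKM + 0.1), with or without the filter, -0.0212 on log2(FPKM + 1), -0.0205 as the ratio of mean FPKM and -0.0230 on total reads without TMM.

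With 1 library left out at a time, log2 fold changes that changed sign ranged as follows. In F1_5251KD against 3NC they were -0.11 to 0.033 in Tcfl5, -0.15 to 0.020 in Brdt, -0.042 to 0.16 in Crem and -0.16 to 0.072 in Tbpl1. In 5NC against 3NC they were -0.081 to 0.058 in Tcfl5, -0.13 to 0.035 in Brdt and -0.083 to 0.24 in Rfx2. In F1_5251OV against 5NC Brdt ranged from -0.029 to 0.057. For the difference they were -0.17 to 0.12 in Mybl1, -0.034 to 0.22 in Sox30 and -0.30 to 0.029 in Rfx2.

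The number of genes passing over all genes tested depended on the method. It was 0 (F1_5251KD against 3NC), 51 (F1_5251OV against 5NC), 21 (5NC against 3NC) and 4 (difference) as reported, and 16, 323, 163 and 41 with DESeq2. In F1_5251OV against 5NC it was 107 with only the libraries compared, 82 on log2(FPKM + 0.1) and 159 without the leukocyte-rich libraries. In 5NC against 3NC it was 7, 28 and 45 under those 3 alternatives, 35 on unfiltered FPKM, and 33 on total reads without TMM. Unfiltered FPKM gave 9 for the difference. With the replicate number as a replicate block the counts were 0, 21, 5 and 2, and Rfx4 in F1_5251OV against 5NC was at 0.39 with an adjusted p of 0.253 by edgeR. Same-numbered libraries had correlations of their deviations from -0.61 to 0.36, over 0.1 in 5 of 18 pairs, so the numbers were not read as pairs.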
